A study of Sus scrofa with 12 samples.

Results

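The genes described here encode 9 regulators of liver gene expression, namely the hepatocyte transcription factors HNF4A, CEBPA, CEBPB, FOXA1, FOXA2 and PROX1 and the xenobiotic receptors NR1I2 (PXR), NR1I3 (CAR) and AHR. A gene was taken from the array by its single gene symbol in the probe annotation, and its transcript with the highest mean stood for it. In this way 8 of the 9 genes were found among 12307 named genes, with 9 transcripts out of 25388, since NR1I2 has a second, dimmer transcript. AHR was not found under 1 gene symbol and is not analysed here.

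The livers came from 12 suckling piglets of mixed sex, bred from hybrid sows inseminated with Pietrain semen and sampled on the third day of life. Swine inflammation and necrosis syndrome (SINS) causes reddening, swelling and necrosis of tail, ears, teats and claws. The SINS low group holds the 6 piglets with the lowest clinical scores of a larger scored herd, with no or slight signs, and the SINS high group the 6 with the highest scores. The groups thus differ by the score they were chosen for and by whatever goes with it. The sex and litter of each piglet are not given in the sources used here, so p-values measure the spread between these piglets and take no account of shared litters. Values are log2 levels from RMA, in which the authors corrected the background, brought the arrays to a common scale and joined the probes of each transcript into 1 value. Every array had a median log2 level between 4.36 and 4.42, and any pair of arrays correlated at 0.964 to 0.988. Precision is limited by having 6 arrays in a group. Hepatocyte identity of the tissue was plain in both groups, with albumin (ALB) at 12.66 ± 0.07 in SINS low and 12.67 ± 0.05 in SINS high livers (SD, n = 6), and a mean log2 level of 13 hepatocyte markers between 11.38 and 11.68 in each piglet.

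Hepatocytes keep their identity through a network of transcription factors that bind the same enhancers and one another's genes. HNF4A, a nuclear receptor, and C/EBPα (CEBPA) hold up metabolic and secretory genes, FOXA1 and FOXA2 open chromatin for them, and PROX1 represses part of the bile acid and lipid program together with HNF4A. C/EBPβ (CEBPB) serves the acute-phase response to inflammatory cytokines. NR1I2 and NR1I3 sense drugs, bile acids and other small molecules and induce cytochromes P450, and in rodents and humans inflammation is known to lower both receptors. The comparison asks whether the transcript levels of these regulators differ between livers of piglets with high and low SINS scores.

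None of the 8 genes passed the filter of the study, a fold change above 1.3 with an unadjusted p below 0.05. The count was 0 of 8, against 6.10% of the 12307 named genes that passed it with limma, 2.30% with higher and 3.80% with lower levels in SINS high livers. Over all 25388 transcripts the share was 5.16%, with 2.12% higher and 3.04% lower. A share of that size would amount to less than 1 of 8 genes, so the count by itself says nothing particular about these regulators. By limma 0 of the 8 had an unadjusted p below 0.05, against 13.1% of named genes and 11.4% of transcripts. Over all transcripts 0 had an adjusted p below 0.05, with 2884 below an unadjusted 0.05. The methods' t-test also gave 0 transcripts after adjustment, with 2631 below an unadjusted 0.05. The estimate was above 0 for 5 of the 8 genes and below 0 for 3, with a median log2(FC) of 0.07, where the median of all named genes was 0.00. In all 8 the groups overlapped, whereas 0.463% of named genes had groups that did not. In whole liver, fewer cells of a type and less RNA per cell cannot be told apart.

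The intervals show how large a difference the data leave room for. For 0 of the 8 genes did the 95% interval of the difference lie within a fold change of 1.3 either way, for 6 it lay within 1.5, and for 7 within 2. The widths ran from 0.61 to 1.37 on the log2 scale. The intervals hold for 1 gene at a time, take no account of shared litters and refer to array values, in which large differences are compressed. Within these limits they bound the array values of most regulators to moderate differences but do not show that the groups were alike.

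**Figure D1:**
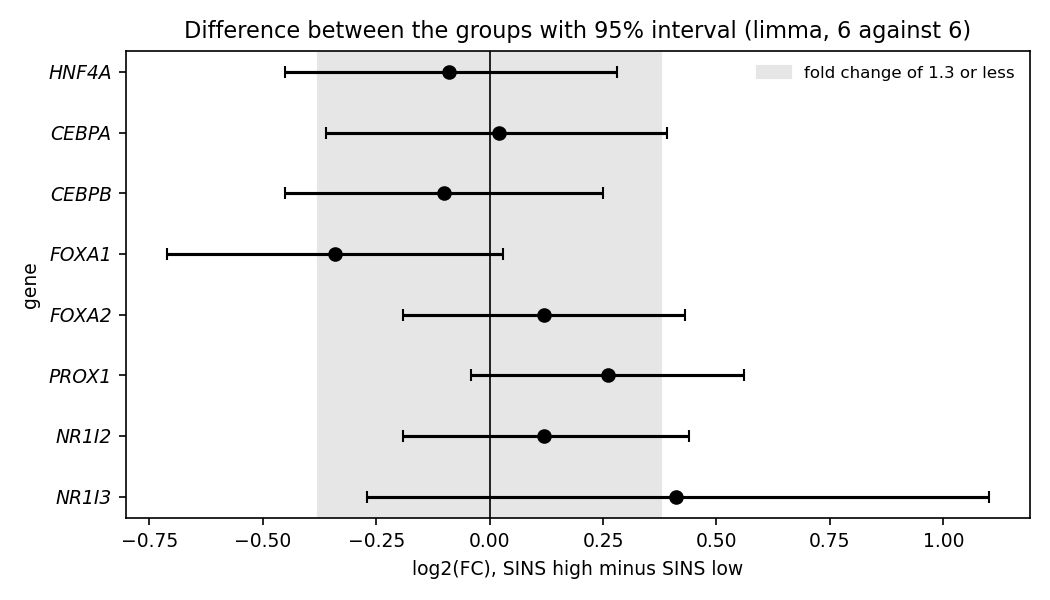
Difference in log2 level between SINS high and SINS low livers (x axis, log2(FC)) for each gene (y axis), as limma estimates (points) with 95% intervals (bars), and the range of fold changes of 1.3 or less in grey. All intervals include 0, FOXA1 lies farthest to the left at −0.34 and NR1I3 farthest to the right at 0.41 with the widest interval.

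HNF4A, the central nuclear receptor of the hepatocyte, had log2 levels of 7.69 to 8.66 in SINS low livers (median 7.93) and of 7.58 to 8.26 in SINS high livers (median 8.04). The highest values were those of SINS low replicates 4 and 5, the lowest that of SINS high replicate 3, and 5 of the 6 SINS high piglets lay within the SINS low range. The log2(FC) was −0.09 (standard error 0.17, 95% interval −0.45 to 0.28, adjusted p = 0.893 from limma). Its sign turned to 0.03 when SINS low replicate 4 was left out.

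CEBPA, whose product maintains metabolic genes of mature hepatocytes, had 5.93 to 6.94 in the SINS low group (median 6.34) and 6.09 to 6.82 in the SINS high group (median 6.43). All 6 SINS high piglets lay within the SINS low range. The log2(FC) of 0.02 (standard error 0.17, 95% interval −0.36 to 0.39, adjusted p = 0.983 from limma) was the smallest of the 8 in size, and its sign turned in 5 of the 12 fits that left out 1 array.

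CEBPB, the factor of the acute-phase response, had 6.34 to 7.24 in the SINS low group (median 6.77) and 6.36 to 7.28 in the SINS high group (median 6.58). Each group held 1 piglet well above the rest, SINS low replicate 6 and SINS high replicate 3. The log2(FC) was −0.10 (standard error 0.16, 95% interval −0.45 to 0.25, adjusted p = 0.862 from limma). An increase of the array value beyond 1.19-fold therefore lies outside the interval. Without SINS high replicate 3 the log2(FC) was −0.22.

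FOXA1, a pioneer factor that opens liver enhancers, had 5.87 to 6.62 in the SINS low group (median 6.23) and 5.28 to 6.32 in the SINS high group (median 5.94). SINS high replicates 1, 2 and 5 lay below every SINS low piglet, while replicates 3, 4 and 6 lay inside the SINS low range. The log2(FC) was −0.34 (standard error 0.17, 95% interval −0.71 to 0.03), with an exact permutation p of 0.106 (two-sided) and an adjusted p of 0.477 from limma. FOXA1 had the smallest p of the 8 genes, and it passed the filter in 3 of the 12 fits that left out 1 array. Its log2(FC) was −0.42 without SINS low replicate 3, −0.43 without SINS high replicate 3 and −0.41 without SINS high replicate 6.

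Bile duct cells express FOXA genes as well. Of 11 measured markers of these cells, 3 were lower in SINS high livers and 0 higher (27.3%), against 3.80% of all named genes that were lower. The other 8 did not pass the filter, and only those that passed are named. The median log2(FC) was −0.18, and the mean log2 level of the list was 6.31 to 6.56 in SINS low and 6.09 to 6.38 in SINS high piglets. KRT18 and KRT8, keratins of simple epithelia that hepatocytes also make, had −0.76 (standard error 0.24, exact p = 0.0303, adjusted p = 0.298 from limma) and −0.53 (standard error 0.20, exact p = 0.0519, adjusted p = 0.361 from limma). MMP7, a matrix protease of duct cells, had −0.44 (standard error 0.16, exact p = 0.0303, adjusted p = 0.341 from limma). The call of MMP7 was lost without SINS low replicate 3 or 5 (−0.37 and −0.35), and that of KRT8 without SINS high replicate 5 (−0.42). Across the 12 livers FOXA1 and the mean of the list had r = 0.53 (permutation test, p = 0.0771, adjusted p = 0.514) and rho = 0.54 (p = 0.0748, adjusted p = 0.532). Without the piglets farthest from the FOXA1 median r was 0.32, and it was 0.38 within the SINS low and 0.17 within the SINS high group. FOXA2 and the mean of the same list had r = −0.36 (permutation test, p = 0.245, adjusted p = 0.657) and rho = −0.33 (p = 0.296, adjusted p = 0.697). Without the piglets farthest from the FOXA2 median r was −0.06. Within the SINS low group it was 0.18 and within the SINS high group −0.75 (exact permutation test, p = 0.0806, unadjusted). The part of duct cells in the FOXA1 and FOXA2 values was not tested.

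FOXA2, the second pioneer factor, had 5.24 to 5.91 in the SINS low group (median 5.61) and 5.46 to 6.05 in the SINS high group (median 5.70). SINS high replicates 3 and 5 lay above every SINS low piglet, and SINS low replicates 1 and 2 below every SINS high piglet. The log2(FC) was 0.12 (standard error 0.14, 95% interval −0.19 to 0.43, adjusted p = 0.794 from limma). FOXA1 and FOXA2 thus had estimates of opposite sign, and across the 12 livers their levels had an r of −0.06 (permutation test, p = 0.852, adjusted p = 0.938) and a rho of −0.06 (p = 0.871, adjusted p = 0.917). That r was −0.14 without the piglets farthest from the FOXA1 median, −0.35 within the SINS low and 0.37 within the SINS high group.

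PROX1, a homeobox factor of hepatocytes that also marks lymphatic endothelium, had 7.88 to 8.54 in the SINS low group (median 8.08) and 8.21 to 8.75 in the SINS high group (median 8.34). The SINS low piglets were split, with replicates 4 and 5 amid the SINS high values and the other 4 below every SINS high piglet. All 6 SINS high piglets lay above the SINS low median. The log2(FC) was 0.26 (standard error 0.14, 95% interval −0.04 to 0.56), with an exact permutation p of 0.119 (two-sided) and an adjusted p of 0.509 from limma. The unadjusted p of the PROX1 log2(FC) from limma was 0.0872. Without SINS low replicate 4 it was 0.0296 (log2(FC) 0.34) and without replicate 5 0.0337 (0.33), both still below the fold change of the filter. Among 13 markers of lymphatic and sinusoidal endothelium other than PROX1, 1, the angiopoietin receptor TEK, was higher in SINS high livers and 0 lower (7.69%). Of all named genes 6.10% passed the filter in either direction, and 2.30% passed with higher levels. A single marker past the filter in a list of this size says nothing particular. Without SINS high replicate 6, 4 were higher, and without SINS low replicate 4, 1 was lower. The list had a median log2(FC) of 0.22 and a mean log2 level of 6.49 to 6.96 in SINS low and 6.59 to 7.27 in SINS high piglets. LYVE1 and PDPN, which were also listed, were not among the measured markers. PROX1 and the mean of that list had r = 0.36 (permutation test, p = 0.246, adjusted p = 0.657) and rho = 0.40 (p = 0.2, adjusted p = 0.536) across the 12 livers, with r = 0.14 without the piglets farthest from the PROX1 median, 0.24 within the SINS low group and 0.16 within the SINS high group. The part of endothelial cells in the PROX1 values was not tested.

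NR1I2, the pregnane X receptor, had 7.06 to 8.00 in the SINS low group (median 7.78) and 7.65 to 7.93 in the SINS high group (median 7.81). The SINS high piglets lay close together, while SINS low replicates 5 and 6 lay below every other piglet. The SD was 0.36 in the SINS low and 0.12 in the SINS high group. The log2(FC) was 0.12 (standard error 0.15, 95% interval −0.19 to 0.44, adjusted p = 0.794 from limma), and it was 0.00 without SINS low replicate 5. The dimmer transcript of NR1I2 had 0.04 (standard error 0.09), with means of 5.53 and 5.57, and here only SINS low replicate 6 lay clearly below the other piglets at 5.19.

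NR1I3, the constitutive androstane receptor, varied most of the 8 genes between piglets. Its log2 level was 5.32 to 7.22 in the SINS low group (median 6.20) and 6.00 to 7.49 in the SINS high group (median 6.58). SINS high replicates 1 and 3 were the highest of all piglets, SINS low replicate 4 came next, and SINS low replicate 6 was the lowest. The log2(FC) of 0.41 (standard error 0.32, 95% interval −0.27 to 1.10, adjusted p = 0.658 from limma, exact permutation p = 0.299, two-sided) was the largest of the 8 in size. It was nevertheless below the spread within the groups, whose SD was 0.67 in SINS low and 0.62 in SINS high livers. The estimate ranged from 0.23 without SINS low replicate 6 to 0.61 without SINS low replicate 4. The pooled SD within groups, 0.65, was higher than that of 97.9% of named genes, where the other 7 regulators stood at 67.6% to 83.9% and the median gene had an SD of 0.22.

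**Figure D2:**
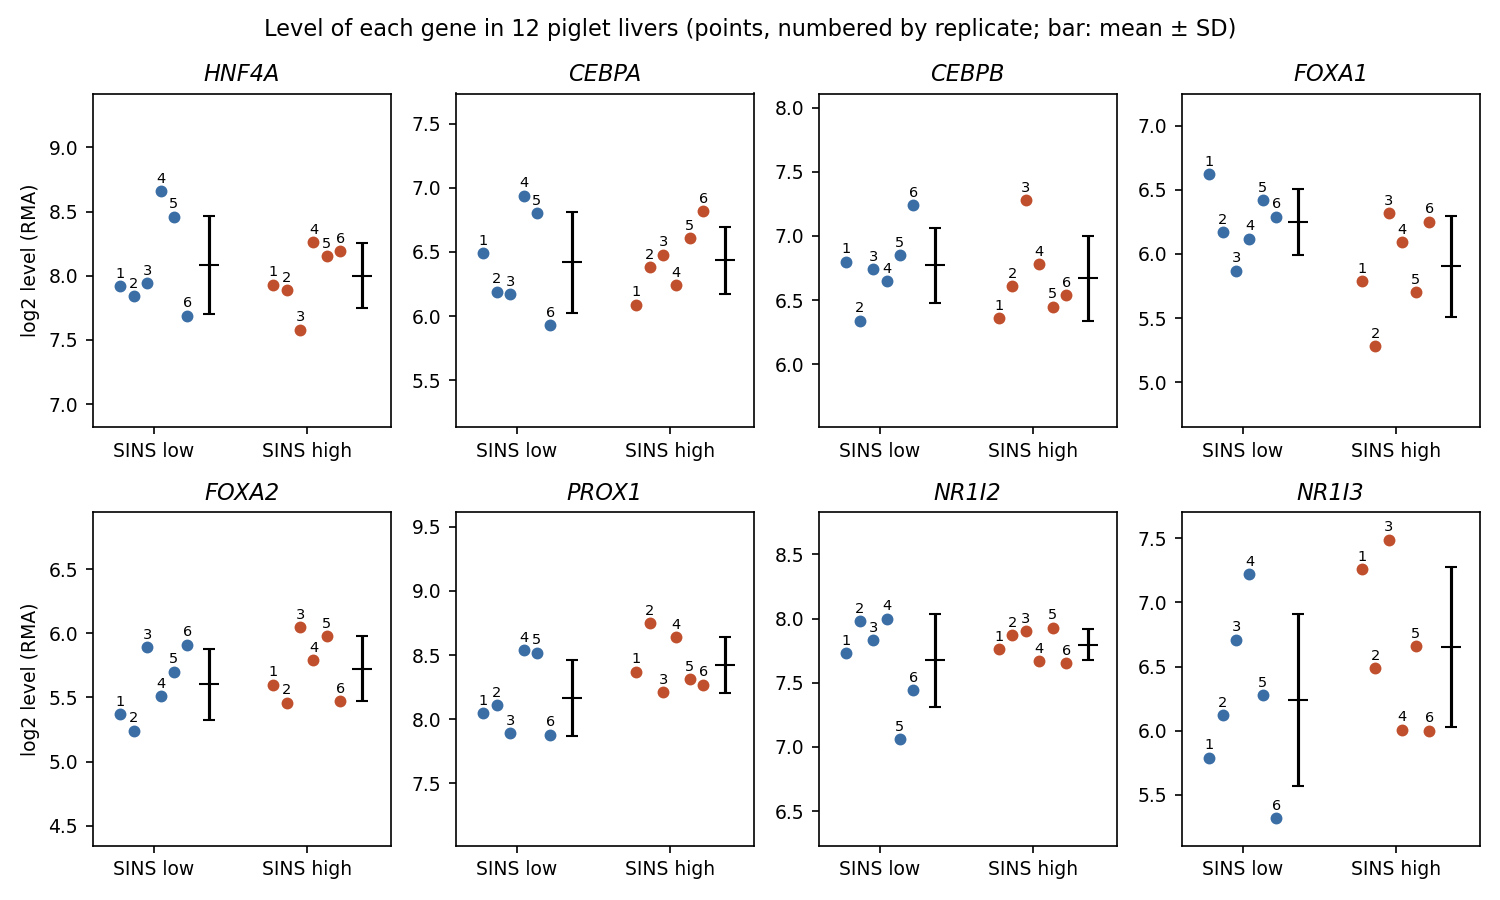
Log2 level (y axis, RMA) of each of the 8 genes in the 6 SINS low and 6 SINS high livers, with 1 numbered point per piglet and the mean ± SD as a bar. The y axes have different starts but the same length. The groups overlap in all 8 panels, and NR1I3 spreads most, from 5.32 to 7.49.

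The same few piglets held the extremes of several genes. SINS high replicate 3 had the highest value of all 12 piglets for CEBPB, FOXA2 and NR1I3 and the lowest for HNF4A. SINS low replicate 6 had the lowest value for CEBPA, NR1I3 and PROX1, and SINS low replicate 4 the highest for HNF4A, CEBPA and NR1I2. These 3 piglets thus held 10 of the 16 highest or lowest values, and they belong to both groups. No single value stood apart from its group by Dixon's test in any of the 16 sets of 6 values.

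**Figure D3:**
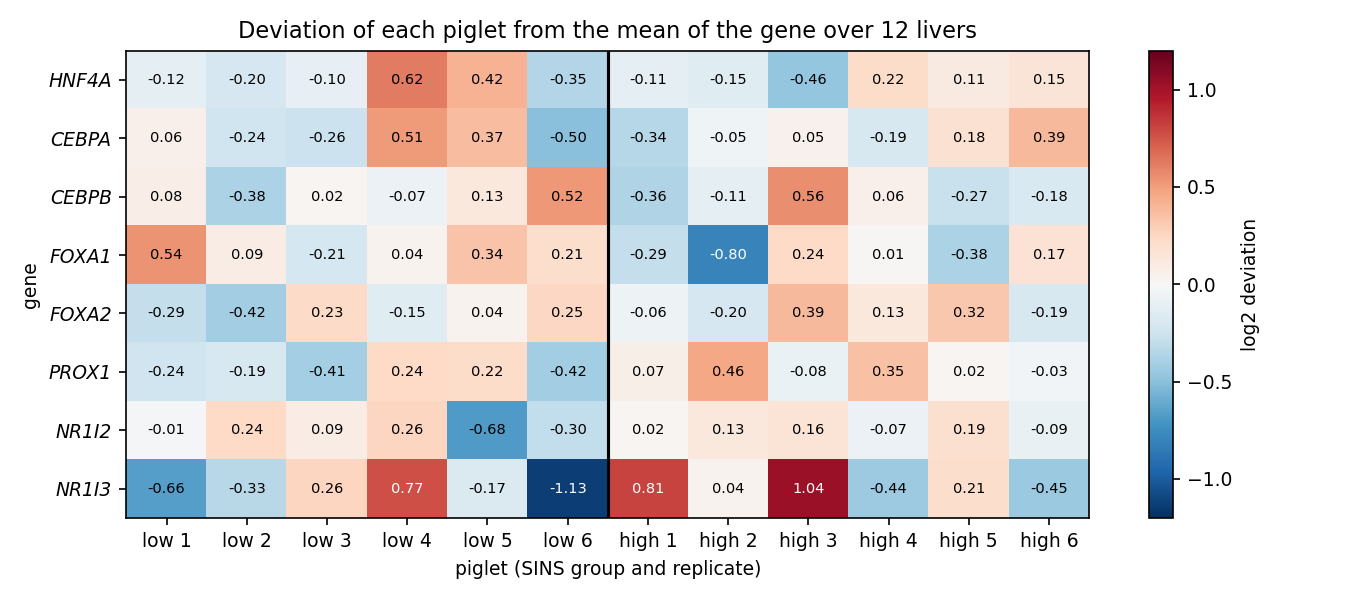
Deviation of each piglet (columns, SINS low to the left and SINS high to the right of the line) from the mean of each gene (rows) over the 12 livers, on the log2 scale. SINS low replicate 6 and SINS high replicate 3 are far apart for NR1I3, at −1.13 and 1.04, but alike for CEBPB, at 0.52 and 0.56.

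Whether the regulators vary together was measured over the 28 pairs of genes, in a family of 40 relations across the 12 livers that also held 7 with target lists and 5 with marker lists. Of the 40, 0 had an adjusted p of r or of rho below 0.05 (smallest adjusted p of r 0.412), and 3 had an unadjusted p of r below 0.05. HNF4A and CEBPA had the highest r of the pairs, 0.70 (permutation test, p = 0.0103, adjusted p = 0.412), with rho = 0.60 (p = 0.042, adjusted p = 0.532). This rested on SINS low replicates 4 and 5, without which r was 0.41. Within the SINS low group r was 0.95 (exact permutation test, p = 0.00556, unadjusted), within the SINS high group 0.18 (exact p = 0.733). The other pair with an unadjusted p of r below 0.05 was CEBPB and FOXA2, with r = 0.58 (permutation test, p = 0.0497, adjusted p = 0.514) and rho = 0.48 (p = 0.116, adjusted p = 0.536). It rested on SINS high replicate 3 and SINS low replicate 6, without which r was 0.23, and r was 0.75 within the SINS low (exact p = 0.0694) and 0.56 within the SINS high group (exact p = 0.244).

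The relation of HNF4A with other genes also took different values in the groups. With PROX1, r was 0.55 over all 12 livers (permutation test, p = 0.0655, adjusted p = 0.514) and rho 0.53 (p = 0.0798, adjusted p = 0.532), with r = 0.43 without SINS low replicates 4 and 5, 0.94 within the SINS low (exact p = 0.025) and 0.24 within the SINS high group (exact p = 0.637). With NR1I3, r was 0.09 over all livers (permutation test, p = 0.776, adjusted p = 0.913) and rho 0.04 (p = 0.903, adjusted p = 0.926), with r = −0.21 without the same piglets, 0.76 within the SINS low (exact p = 0.0833) and −0.85 within the SINS high group (exact p = 0.0319). The p-values within groups are not adjusted, each group holds 6 piglets, and the difference between the groups was not tested. Of all 28 pairs of genes only 14 had r of the same sign in both groups, so unlike values in the groups are not particular to HNF4A. NR1I2 and NR1I3, which share many target genes, had r = 0.47 (permutation test, p = 0.119, adjusted p = 0.584) and rho = 0.59 (p = 0.0486, adjusted p = 0.532), with r = 0.50 without SINS low replicates 5 and 6, 0.43 within the SINS low and 0.61 within the SINS high group.

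**Figure D4:**
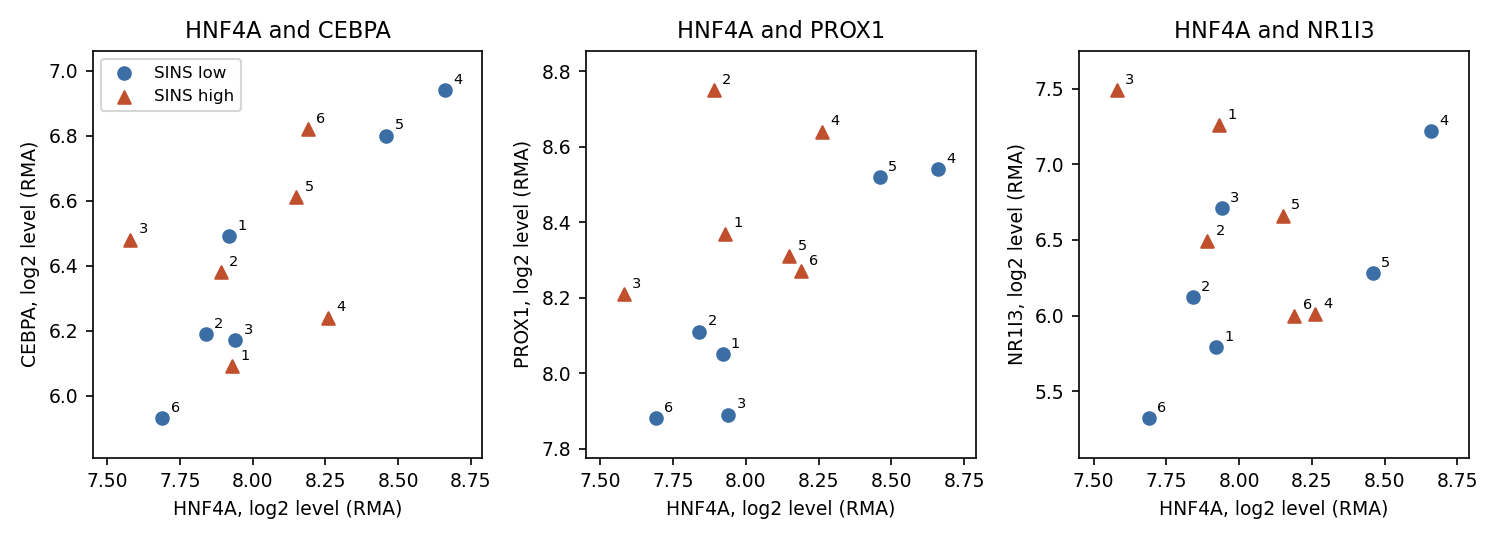
Log2 level (RMA) of CEBPA, PROX1 and NR1I3 (y axes) against that of HNF4A (x axes), with 1 point per piglet, numbered by replicate. In SINS low livers (circles) all 3 genes are highest in replicate 4 and lowest in replicate 6, whereas in SINS high livers (triangles) NR1I3 is highest where HNF4A is lowest.

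By their pattern over the 12 livers, the genes most like each regulator were mostly not classic liver factors. The 3 named genes with the highest Pearson r to NR1I3 were IRF2, a factor of the interferon response (0.94), KANK1 (0.92) and ARHGAP17 (0.88). For HNF4A they were AFDN, SMYD1 and MAP3K21, each at 0.91. CEBPA was followed by C15H2orf72 (0.88), NAGS, which makes the activator of the urea cycle (0.86), and ARVCF (0.85). For CEBPB they were the mitochondrial carrier SLC25A25 (0.86), the stress-induced DDIT4 (0.85) and PPP4R4 (0.85). FOXA1 was followed by MAL (0.88), the plasma protein gene FETUB (0.87) and RAB5C (0.85), and FOXA2 by SLC35F1 (0.90), NKAPL (0.87) and SMUG1 (0.86). For PROX1 they were PIR (0.93), ANGPTL5 (0.92) and CDC42BPB (0.90), and for NR1I2 TMEM130 (0.85), PALMD (0.84) and LOC100525551 (0.84). These are the highest correlations out of all named genes over only 12 arrays, so high values arise in any case, and 0 of the 24 genes passed the filter between the groups.

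Genes that act beside the 8 regulators are read against the 6.10% of all named genes that passed the filter in either direction. Of 20 other liver transcription factors, 1 was higher and 0 were lower (2 higher without SINS high replicate 6), with a median log2(FC) of 0.04. The 1 was DBP, a factor of circadian output, with 0.56 (standard error 0.18, adjusted p = 0.302 from limma, exact p = 0.026). Its level was 4.20 to 4.99 in SINS low and 4.38 to 5.57 in SINS high livers, and 5 of 6 SINS high piglets lay above all SINS low piglets. Of 21 other nuclear receptors 0 passed in either direction, with a median of 0.06, and of 14 partners and coregulators likewise 0, with a median of 0.05 (2 higher and 1 lower without SINS high replicate 6).

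A few partners are given for their role, outside the rule by which genes are named. RXRA, the shared partner of NR1I2 and NR1I3, had a log2(FC) of 0.00 (standard error 0.11, 95% interval −0.24 to 0.24). ARNT, which pairs with AHR to bind DNA, had 7.85 to 8.29 in SINS low and 7.94 to 8.74 in SINS high livers, and 5 of the 6 SINS high piglets lay above all SINS low piglets. Its log2(FC) was 0.30 (standard error 0.12, exact p = 0.0411, adjusted p = 0.375 from limma), below the fold change of the filter. Without a fold threshold, 2 of the 14 partners and coregulators were higher and 2 lower at an unadjusted p below 0.05 from limma. Of all named genes 13.1% had such a p. The glucocorticoid receptor NR3C1 had 0.08 (standard error 0.10) and NR0B2 (SHP), the corepressor of bile acid signaling, 0.05 (standard error 0.22).

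Targets of the xenobiotic receptors are read against all named genes. Of these, 6.10% passed the filter in either direction, 2.30% with higher and 3.80% with lower levels. In lists this short, 1 gene past the filter says nothing particular about the targets. AHR itself is not analysed here. Among 8 of its measured targets 1, CYP1A2, was higher in the SINS high group and 0 were lower (12.5%), with a median log2(FC) of 0.09 over the list. CYP1A2, a cytochrome P450 of hepatocytes, had 5.13 to 8.03 in SINS low livers (median 5.88) and 6.89 to 8.62 in SINS high livers (median 7.77). Its log2(FC) of 1.47 (standard error 0.49, exact p = 0.0411, adjusted p = 0.313 from limma) passed the filter in all 12 fits that left out 1 array. CYP1A1, the other classic AHR target of the same subfamily, had 0.39 (standard error 0.46, 95% interval −0.59 to 1.36), with values from 6.70 to 9.12 in SINS low and from 7.04 to 9.66 in SINS high livers. Of 14 measured targets of NR1I2 and NR1I3, 1 was lower and 0 were higher (7.14%), with a median of 0.07 (2 higher without SINS low replicate 5). This was GSTA4, a glutathione transferase, with −0.41 (standard error 0.16, exact p = 0.0476, adjusted p = 0.37 from limma). Its call was lost without SINS low replicate 2 (−0.30) and without SINS high replicate 3 (−0.36) or 5 (−0.35). Only 14 of the 32 listed targets of these receptors were found under 1 symbol, and none of the 4 CYP3A genes on the list was among them.

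Targets of the hepatocyte factors are read against the 2.30% of all named genes that were higher. Of 24 measured C/EBP targets, 4 had higher and 0 lower levels in SINS high livers (16.7%), with a median log2(FC) of 0.11 and 3 to 6 higher when 1 array was left out. BHMT, which remethylates homocysteine, had 7.56 to 9.14 in SINS low and 9.11 to 10.12 in SINS high livers, and its log2(FC) was 1.19 (exact p = 0.00649, standard error 0.27). The acute-phase genes CRP and CP had 0.97 (standard error 0.32, exact p = 0.026) and 0.75 (standard error 0.27, exact p = 0.0455). The fourth, TAT, the tyrosine aminotransferase, had 0.52 (standard error 0.21, exact p = 0.0584) and was also the 1 gene past the filter among 25 measured HNF4A targets (4%) and among 14 measured FOXA targets (7.14%). Its call was lost without SINS low replicate 1 or 2 (0.44 and 0.39) and SINS high replicate 3 or 5 (each 0.47). These 4 C/EBP targets were named because they passed the filter, so their exact p is no separate evidence. Their adjusted p from limma was 0.28 for BHMT, 0.307 for CRP, 0.351 for CP and 0.37 for TAT. The exact p of KRT18, KRT8, MMP7, DBP and GSTA4, also named because they passed the filter, is likewise no separate evidence. The lists were written with earlier results of these data known. Without SINS high replicate 6, 4 HNF4A targets and 4 FOXA targets were higher, and 1 C/EBP target was lower. Without SINS low replicate 5, 1 HNF4A target was lower. Many of these genes answer to several of the factors, and TAT stands on 3 of the lists and among the hepatocyte markers.

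The level of a factor and the mean of its targets were also set against each other per piglet. FOXA2 and the FOXA targets had r = 0.62 (permutation test, p = 0.0326, adjusted p = 0.514) and rho = 0.57 (p = 0.0588, adjusted p = 0.532), with r = 0.53 without the piglets farthest from the FOXA2 median, 0.79 within the SINS low and 0.56 within the SINS high group. FOXA1 and the same targets had r = −0.56 (permutation test, p = 0.0605, adjusted p = 0.514) and rho = −0.50 (p = 0.0998, adjusted p = 0.536), with −0.44 without the farthest piglets and −0.29 and −0.51 within the groups. HNF4A and its targets had r = 0.44 (permutation test, p = 0.156, adjusted p = 0.584) and rho = 0.42 (p = 0.178, adjusted p = 0.536), with r = 0.45 without SINS low replicates 4 and 5, 0.90 within the SINS low (exact p = 0.0111) and 0.31 within the SINS high group (exact p = 0.543). For CEBPA, CEBPB, NR1I2 and NR1I3 the r with their targets lay between −0.00 and 0.15 over all livers. Within the SINS low and SINS high groups it was 0.48 and −0.58 for CEBPA, 0.33 and 0.28 for CEBPB, −0.05 and 0.07 for NR1I2, and 0.42 and −0.41 for NR1I3.

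**Figure D5:**
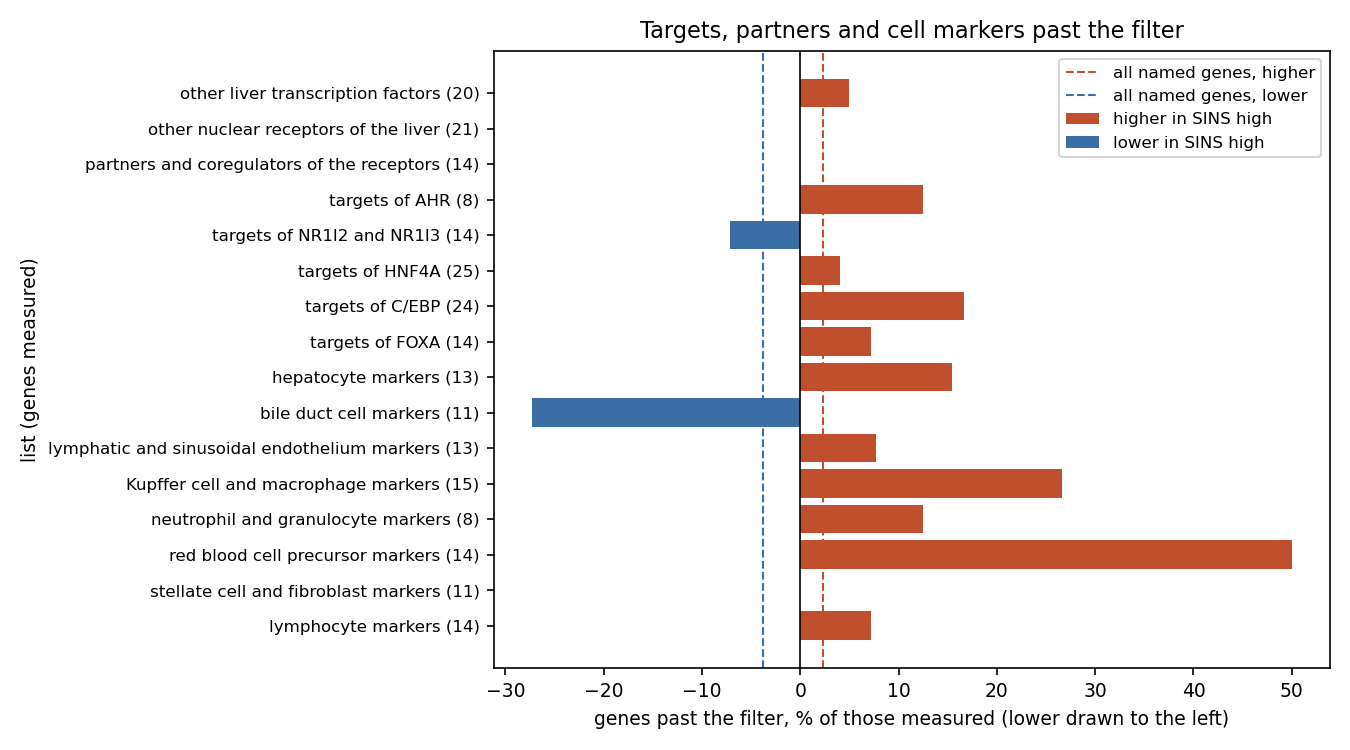
Share of the measured genes of each list (y axis, number measured in brackets) that passed the filter (x axis, %), higher in SINS high to the right and lower to the left, with dashed lines for all named genes (2.30% higher, 3.80% lower). Of the target lists the C/EBP list has the largest share at 16.7% by limma, below those of the markers of red blood cell precursors (50%), bile duct cells (27.3%, lower) and macrophages (26.7%). With the methods' t-test 2 of the 15 macrophage markers and 4 of the 24 C/EBP targets were higher.

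Markers of other cell types of the neonatal liver were also measured. Their counts are read against the 2.30% of all named genes that were higher and the 3.80% that were lower. Of 14 markers of red blood cell precursors 7 were higher and 0 lower, with a median log2(FC) of 0.39 and a mean log2 level of 3.93 to 4.77 in SINS low and 4.51 to 5.14 in SINS high piglets. When 1 array was left out 5 to 8 of them were higher, and 1 was lower without SINS high replicate 6. Of 15 Kupffer cell and macrophage markers 4 were higher and 0 lower (median 0.30, mean level 6.23 to 6.68 and 6.50 to 7.08), and 1 to 7 were higher when 1 array was left out, with 1 without SINS high replicate 3 and 7 without SINS high replicate 6. Of 8 neutrophil and granulocyte markers 1 was higher (median 0.37, mean level 3.19 to 4.20 and 3.70 to 4.49), and 5 without SINS low replicate 4. Myeloid cells make C/EBPβ too, and over the 12 livers CEBPB had r = −0.06 (permutation test, p = 0.842, adjusted p = 0.938) and rho = −0.08 (p = 0.818, adjusted p = 0.917) with the macrophage list. With the granulocyte list it had r = −0.17 (permutation test, p = 0.605, adjusted p = 0.856) and rho = −0.15 (p = 0.634, adjusted p = 0.917). Within the SINS low and SINS high groups r was −0.55 and 0.58 with macrophage markers and −0.69 and 0.53 with granulocyte markers. The hepatocyte markers had 2 of 13 higher, TAT and the ethanol-metabolizing CYP2E1 with 0.88 (standard error 0.32, exact p = 0.0498, adjusted p = 0.343 from limma), and a median of 0.04. Of 14 lymphocyte markers 1, PTPRC, was higher and 0 were lower (7.14%). Of all named genes 2.30% were higher and 6.10% passed in either direction. The count of higher lymphocyte markers was 2 without SINS low replicate 2 or SINS high replicate 4. It was 0 without SINS high replicate 3 and without SINS low replicate 4 or 6. Of 11 stellate cell and fibroblast markers 0 passed in either direction, but 3 were lower without SINS high replicate 1, 2 without SINS low replicate 4 and 1 without SINS high replicate 5, and 1 was higher without SINS high replicate 2. The part of these cell types in the levels of the regulators was not tested.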

How the data were processed

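Liver RNA of 12 piglets was hybridized to Affymetrix Porcine Gene 1.0 ST arrays, 1 per piglet. The deposited values are log2 levels that the authors made with RMA in Affymetrix Expression Console (background correction, normalization across arrays, summary per transcript), and they were used without further scaling. RMA pulls arrays to a common distribution and probe sets compress large differences, so levels were compared between groups and not between genes. Gene names came from the platform annotation, and 13257 transcripts had 1 symbol, 427 several and 11704 none. The genome build was not given in the sources used here, so no coordinates are printed.

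Groups follow the condition in the labels. SINS high was compared with SINS low with limma (version 3.58.1, lmFit and eBayes, run in R version 4.3.3) over all 25388 transcripts without covariates, with Benjamini-Hochberg adjustment over all of them. The exact p of a single gene is two-sided and runs over all 924 assignments of the piglets. Correlations were tested with 100000 permutations, within groups with all permutations, and adjusted over the 40 relations. A gene was called where its unadjusted p was below 0.05 and its fold change exceeded 1.3. The fits and permutations were tested on simulated data. The members and lists were chosen with earlier results of these data known, and the relations with target and marker lists were added after the values were seen. Named genes are the members, the 3 genes most like each, up to 4 called genes per list and direction with the smallest p, and CYP1A2, CYP2E1 and ALB. An item that the rule also names is not reported here. Alternatives were the methods' t-test, an intensity trend with robust eBayes, centring on array medians, a further quantile normalization, weights per array, only the brighter transcripts (the dimmest 25% removed), the label number as a block, other fold thresholds, the mean over the transcripts of a gene and leaving out each array. Plots and correlations were made in Python 3.11.15 (matplotlib 3.10.9).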

Additional observations from a re-analysis of the deposited data

How the results depend on the processing

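The log2(FC) of the 8 regulators ranged, over the fits that left out 1 array, from −0.16 to 0.03 for HNF4A, −0.08 to 0.12 for CEBPA, −0.22 to −0.01 for CEBPB, −0.43 to −0.22 for FOXA1, 0.05 to 0.18 for FOXA2, 0.00 to 0.19 for NR1I2, 0.23 to 0.61 for NR1I3 and 0.20 to 0.34 for PROX1. Among these fits 0 to 1 of the 8 genes passed the filter, FOXA1 being the 1. Under the other alternatives that keep all arrays, each of the 8 kept its sign and 0 passed the filter. By limma the transcripts called higher numbered 538 and the transcripts called lower 773. The methods' t-test called 386 higher and 600 lower. With limma a fold change above 1.5 left 165 and 251, and leaving out 1 array gave 428 to 893 higher and 550 to 1254 lower. Both were most without SINS high replicate 6, where 171 transcripts also had an adjusted p below 0.05. ALB, whose log2(FC) was 0.01, had −0.02 after quantile normalization once more and −0.00 after median centring, and −0.01 to 0.03 when 1 array was left out. The cause was not tested.

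With the number in the labels as a replicate block, transcripts called higher numbered 628 and transcripts called lower 850, and 0 of the 8 regulators passed the filter, with the PROX1 log2(FC) at 0.26 (unadjusted p = 0.0484 from limma). With array weights PROX1 had 0.32 (unadjusted p = 0.0383 from limma), also below the fold change of the filter, and 2 stellate cell and fibroblast markers were lower. The same number did not pair the piglets: the correlation of their deviations from the group means was −0.00 to 0.34, over 0.1 in only 2 of 6 pairs, and 1 of 6 correlated best with its own number.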
